A study of Homo sapiens with 12 samples.

Results

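The canonical histone genes encode the bulk histones that package newly made DNA, and they are described here across THP-1 cells that received a KLF4 virus or an empty virus. Members were all array probes annotated to a gene of the older HIST1H, HIST2H, HIST3H or HIST4H name series, whose genes are now called H1-, H2AC, H2BC, H3C or H4C. The platform annotation carried the newer names, so the older ones were found as RefSeq synonyms of the same gene. This gave 70 of the 20046 genes that the annotation names, with 80 of the 47323 probes on the array. Of these probes, 79 named a single gene and 1 named both H3C11 and H3C6. A log2 value of 7.29 was taken as the upper edge of the background, and 41 of the 80 probes, for 37 genes, exceeded it on at least 2 arrays. The testable set is therefore 41 of the 20240 probes of the whole array that met the same criterion.

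Core histones H2A, H2B, H3 and H4 form the nucleosome, around which DNA is wound, and linker histone H1 binds where the DNA enters and leaves it. Canonical histone genes lie in clusters, are transcribed mainly in S phase, and give mRNAs that end in a stem-loop in place of a poly(A) tail. Some of them also give polyadenylated transcripts, mostly in cells that differentiate or stop dividing. The RNA was labelled with a kit of the MessageAmp type, which primes from poly(A) tails; its part in the levels given here was not tested.

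The cells were THP-1, a line grown from a human monocytic leukaemia. They carried CRISPR edits against p21 (lines p21-2 and p21-3), against miR-150 (lines 150-3 and 150-4) or a non-targeting control (lines NT-2 and NT-3). All lines had thus gone through CRISPR selection, 17 days before harvest, and all had been infected with a lentivirus, 5 days before harvest. Each line was infected once with KLF4 virus and once with the empty control virus, ECV, which gave 6 groups of 2 arrays. KLF4 is a transcription factor known for roles in monocyte differentiation, p21 (CDKN1A) is an inhibitor of cyclin-dependent kinases, and miR-150 is a microRNA of blood cells. The labels do not say how a line was made, by 1 guide or several, as a clone or a pool. They name no separate cultures beyond the lines, so each p-value reflects only how far these lines differ, and that may be technical. The deposited log2 values had 1 median on every array, 7.17, and reached from 6.69 to 14.8.

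Arrays are called by their labels. The CDKN1A probe above background read 11.08 to 12.48 on the 6 KLF4 arrays and 8.88 to 9.37 on the 6 ECV arrays. The p21 lines held the lowest values: 11.08 and 11.37 with KLF4, against 11.66 to 12.48 in the other lines. With ECV they read 9.11 and 8.88, against 9.16 to 9.37. Editing of a gene need not lower its RNA, and the part of the edit was not tested. Neither of the 2 KLF4 probes rose: the log2 differences were -0.10 and -0.23, and the second passed as a fall (limma adjusted p = 0.00973). The labels do not place these probes inside or outside the viral insert, so they check nothing. Among the markers of the labelled cell type, all 9 monocytic genes with a probe were above background. Of these, 6 (66.7%) rose in the mean response to KLF4 virus, where 16.2% of all probes rose. Of other lineages, 1 of 5 T and NK cell, 2 of 3 B cell and 1 of 4 erythroid marker genes were above background; their part in the results was not tested. The root mean square SD within a group was 0.186 for the KLF4 arrays of non-targeting lines and between 0.0917 and 0.111 for the other 5 groups, and the KLF4 array of line NT-2 stood apart in many results below. In bulk RNA, fewer cells of a type and less RNA per cell cannot be told apart.

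The 250 bases before the annotated start are shown for 6 genes (RefSeq, build GRCh38.p14). H2AC25 is the gene that rose, H2BC12 and H2BC11 had the most marked falls, H2AC18 and H2AC20 belong to the chromosome 1 cluster, and H4C8 stands for H4. Capitals mark TATAAA on the gene's strand (the TATA box) and, on either strand, CCAAT (the CCAAT box) and ATGCAAAT (the octamer, known from H2B promoters).
H2AC25 (chr1:228457874-228458123, minus strand): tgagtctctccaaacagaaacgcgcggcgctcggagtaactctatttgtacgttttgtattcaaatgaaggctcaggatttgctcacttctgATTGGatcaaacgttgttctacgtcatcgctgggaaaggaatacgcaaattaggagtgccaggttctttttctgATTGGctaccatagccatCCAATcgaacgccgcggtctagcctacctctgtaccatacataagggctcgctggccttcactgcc
H2BC12 (chr6:27146859-27147108, minus strand): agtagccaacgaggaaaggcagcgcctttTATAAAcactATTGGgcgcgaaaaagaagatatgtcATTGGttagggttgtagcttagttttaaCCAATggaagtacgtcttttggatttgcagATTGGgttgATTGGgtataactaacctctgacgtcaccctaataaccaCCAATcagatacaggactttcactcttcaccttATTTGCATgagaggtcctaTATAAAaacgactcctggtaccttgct
H2BC11 (chr6:27132796-27133045, minus strand): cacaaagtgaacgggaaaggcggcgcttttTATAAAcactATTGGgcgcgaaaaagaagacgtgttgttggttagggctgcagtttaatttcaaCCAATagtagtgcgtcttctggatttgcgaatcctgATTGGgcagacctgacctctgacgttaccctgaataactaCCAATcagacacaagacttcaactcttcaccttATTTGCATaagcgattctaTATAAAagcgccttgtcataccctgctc
H2AC18 (chr1:149842751-149843000, minus strand): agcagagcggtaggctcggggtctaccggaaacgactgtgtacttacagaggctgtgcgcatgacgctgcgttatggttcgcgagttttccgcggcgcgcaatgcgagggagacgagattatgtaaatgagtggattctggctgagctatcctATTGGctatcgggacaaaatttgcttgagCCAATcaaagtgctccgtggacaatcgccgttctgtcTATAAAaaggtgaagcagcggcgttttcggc
H2AC20 (chr1:149886668-149886917, plus strand): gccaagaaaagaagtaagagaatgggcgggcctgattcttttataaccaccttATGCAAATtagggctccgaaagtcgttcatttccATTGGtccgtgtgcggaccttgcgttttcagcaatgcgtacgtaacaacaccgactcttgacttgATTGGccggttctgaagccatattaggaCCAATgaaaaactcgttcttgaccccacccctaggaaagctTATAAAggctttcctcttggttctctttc
H4C8 (chr6:26285535-26285784, minus strand): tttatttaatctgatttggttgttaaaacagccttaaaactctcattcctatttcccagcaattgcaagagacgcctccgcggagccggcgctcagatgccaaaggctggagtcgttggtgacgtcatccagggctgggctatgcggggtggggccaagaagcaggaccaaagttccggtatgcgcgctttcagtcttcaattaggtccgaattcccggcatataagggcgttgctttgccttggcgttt

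H2BC12 and H2BC11 both carried TATAAA, starting 27 and 28 bases before the start, and the octamer, starting 46 and 47 bases before it, and their promoters were identical at 79.4% of aligned positions. H2AC18 had TATAAA 31 bases and H2AC20 29 bases before the start. H2AC25 and H4C8 held neither TATAAA nor ATGCAAAT in this window, and H4C8 held no CCAAT. Over the 65 of 70 histone genes with a RefSeq promoter, 58.5% had TATAAA, 84.6% CCAAT and 40.0% ATGCAAAT, against 7.17%, 33.0% and 1.66% of all 27305 promoters of that length. The C-rich motif CCNCNCCC, of the kind known for KLF factors, was searched on both strands. It was present in 23.1% of the histone promoters, against 52.4% of all promoters, in 27.8% of the 36 histone genes with a promoter and a probe above background, and in 36.4% of the 11 that fell with KLF4 virus. Among these 6 promoters, H2AC20 and H4C8 held 1 match each. A match is a string of letters in a window and does not show that a factor binds there.

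KLF4 virus was accompanied by lower signal for a set of histone genes and higher signal for 1. In the mean over the 3 CRISPR targets, 12 of the 41 histone probes fell and 1 rose (limma, Benjamini-Hochberg adjusted p under 0.05 over all 20240 probes). The 12 probes stand for 11 genes, led by H2BC12 and H2BC11, and the gene that rose was H2AC25. This was 31.7% of the histone probes, against 37.6% of all probes, so histone probes were not called more often than the array as a whole. Falls made up 29.3% of histone probes against 21.4% of all probes, and rises 2.44% against 16.2%. The median difference was -0.07 over the histone probes and -0.02 over all probes. The shares over all probes depended on the normalization. With cyclic loess, a further normalization, 3853 of all probes rose and 3520 fell, against 3276 and 4339. Histone probes then split into 2 higher and 11 lower.

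**Figure D1:**
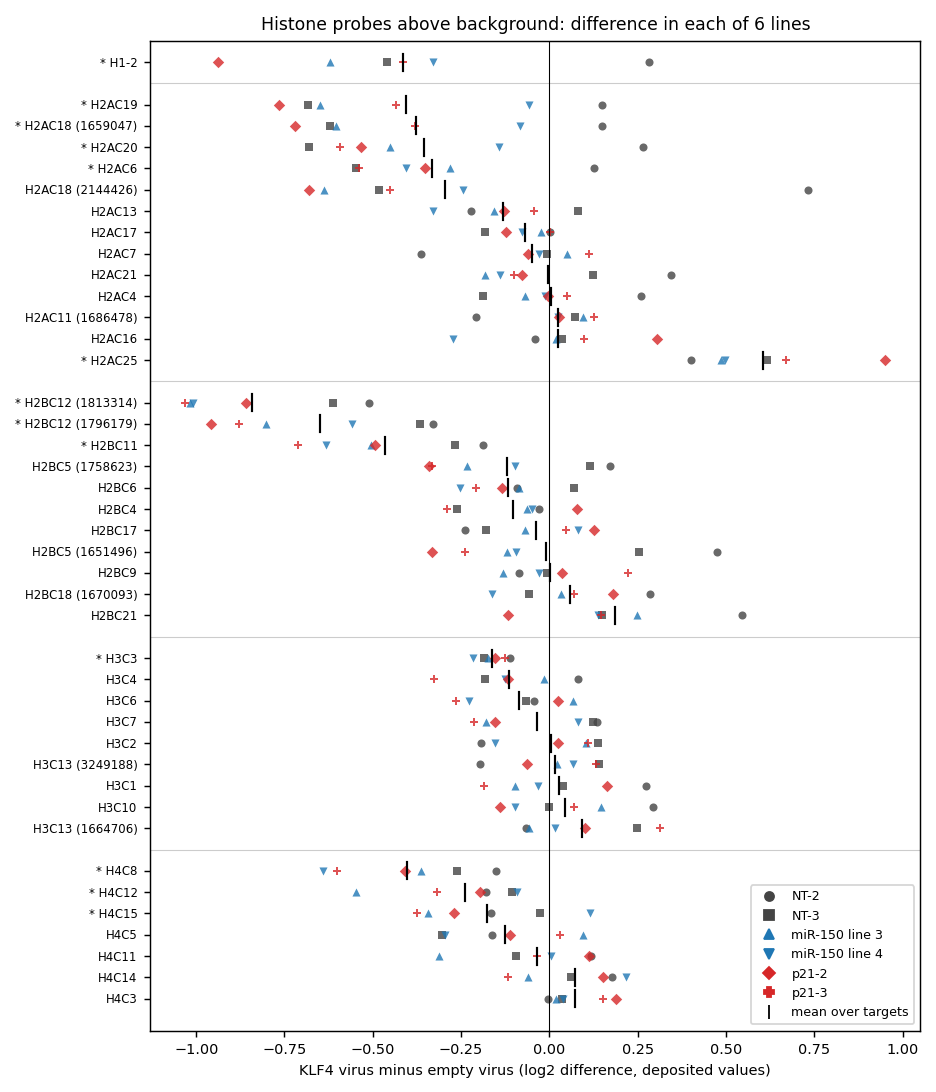
Difference between KLF4 virus and empty virus (log2, x axis) for each of the 41 histone probes above background, by class from H1 at the top to H4 at the bottom; symbols are the 6 lines, black ticks the mean over targets, and an asterisk marks a called probe. H2BC12 lies left of 0 and H2AC25 right of 0 in all 6 lines, while H1-2 and several H2A probes lie left of 0 in every line but NT-2.

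Linker histone H1-2 (HIST1H1C), the 1 H1 probe of 6 above background, ran from 11.40 through a median of 11.70 to 12.33 on the 6 KLF4 arrays, and from 12.02 through 12.10 to 12.40 on the 6 ECV arrays. The high KLF4 value was that of line NT-2, and the groups overlapped through it. H1-2 fell, with a log2 difference of -0.41 (SE 0.110, limma adjusted p = 0.00781), in 5 of 6 lines. In NT-2 it was higher with KLF4, by 0.28. Without both NT-2 arrays its difference was -0.54.

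H2A genes moved both ways. H2AC25 (HIST3H2A), an H2A gene of the small chromosome 1 cluster, read 8.42, 8.66 and 9.18 at the lowest, median and highest on KLF4 arrays. On ECV arrays it read 8.02, 8.10 and 8.30. Every KLF4 array was above every ECV array, and the p21 lines held the highest KLF4 values, 9.18 and 8.97. H2AC25 rose by 0.60 (SE 0.0616, limma adjusted p = 2.757e-06), and it was higher in 6 of 6 lines, by 0.40 to 0.95. No other of the 41 histone probes was higher with KLF4 in all 6 lines, a pattern shown by 15.6% of all probes. Its head-to-head neighbour H2BC26, an H2B gene whose start lies 230 bases away, was not above background on any array.

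H2AC18 (HIST2H2AA3), H2AC19 (HIST2H2AA4) and H2AC20 (HIST2H2AC) are H2A genes of the larger chromosome 1 cluster. H2AC18 and H2AC19 are near-identical copies, with promoters identical at 99.2% of aligned positions, and their probes may not tell them apart. The first H2AC18 probe ran from 11.25 through 11.34 to 11.78 on KLF4 arrays and from 11.58 through 11.83 to 11.99 on ECV arrays. H2AC19 ran from 10.45 through 10.69 to 11.30 with KLF4 and from 10.86 through 11.14 to 11.35 with ECV. H2AC20 ran from 10.11 through 10.20 to 10.74 with KLF4 and from 10.44 through 10.63 to 10.88 with ECV. For all 3 genes the highest KLF4 value was that of line NT-2, and the groups overlapped. They fell by 0.38 (SE 0.0909, adjusted p = 0.004212), 0.41 (SE 0.116, adjusted p = 0.01197) and 0.36 (SE 0.0913, adjusted p = 0.00635) on the log2 scale, in the order named (limma). Each was lower in 5 of 6 lines and higher in NT-2, by 0.15, 0.15 and 0.27. The second H2AC18 probe had a difference of -0.29 and did not pass. In NT-2 it was 0.73 higher with KLF4 (10.97 against 10.24). Without both NT-2 arrays, a choice made after the data were seen, its difference was -0.50.

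H2AC6 (HIST1H2AC), an H2A gene of the chromosome 6 cluster, ran from 8.84 through 8.97 to 9.21 on KLF4 arrays and from 9.08 through 9.35 to 9.50 on ECV arrays. Again only NT-2 was higher with KLF4, and the groups overlapped. H2AC6 fell by 0.33 on the log2 scale (SE 0.0721, limma adjusted p = 0.001998). The other 7 H2A probes above background, those for H2AC4, H2AC7, H2AC11, H2AC13, H2AC16, H2AC17 and H2AC21, had mean differences between -0.13 and 0.02, and none was called. Their mean levels lay between 7.15 and 7.63, close to background.

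Among H2B genes the fall was concentrated in H2BC12 (HIST1H2BK) and H2BC11 (HIST1H2BJ), both of the chromosome 6 cluster. One H2BC12 probe read 10.01, 10.11 and 10.41 at the lowest, median and highest on KLF4 arrays, against 10.74, 11.00 and 11.16 on ECV arrays. The other H2BC12 probe read 12.09, 12.33 and 12.43 on KLF4 arrays, against 12.75, 12.96 and 13.15 on ECV arrays. Neither pair of groups overlapped. The differences were -0.84 (SE 0.0615, limma adjusted p = 9.492e-08) and -0.65 (SE 0.0578, adjusted p = 7.082e-07). Line by line they ran from -1.03 to -0.51 and from -0.96 to -0.33, with both non-targeting lines nearest to 0.

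H2BC11 read 9.02, 9.18 and 9.34 on KLF4 arrays, against 9.53, 9.68 and 9.78 on ECV arrays, and the groups did not overlap. It fell by 0.47 on the log2 scale (SE 0.0510, limma adjusted p = 5.461e-06) and was lower in 6 of 6 lines. H2BC21 (HIST2H2BE), on chromosome 1, had the opposite sign, with KLF4 arrays from 7.73 through 7.80 to 8.14 and ECV arrays from 7.59 through 7.64 to 7.87. It was higher in 5 of 6 lines, and its difference of 0.18 just missed the threshold (adjusted p = 0.05146). With the line as a block it passed (limma adjusted p = 0.0418). The 2 probes for H2BC5 (HIST1H2BD) had mean differences of -0.01 and -0.12. Both were higher with KLF4 in the 2 non-targeting lines and lower in the other 4. H2BC4, H2BC6, H2BC9, H2BC17 and H2BC18 differed by -0.12 to 0.06, and none was called.

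**Figure D2:**
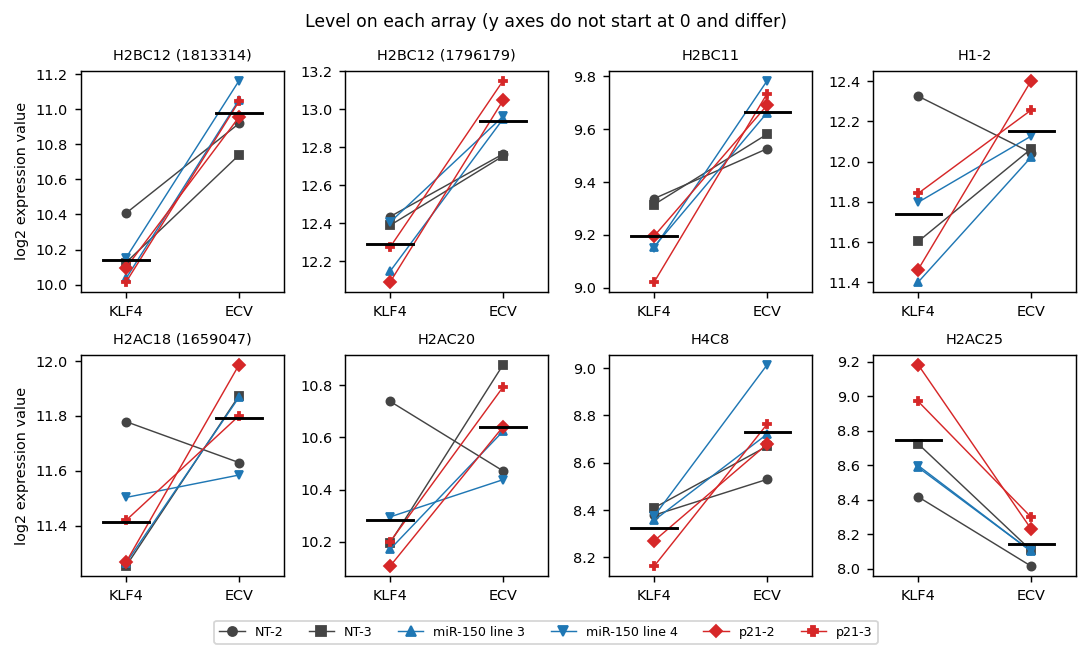
Deposited log2 values (y axis) of 8 histone probes on the KLF4 array (left) and the ECV array (right) of each line, joined by a line, with black bars for the mean of the 6 arrays. H2BC12, H2BC11 and H4C8 fall and H2AC25 rises without overlap between the viruses, whereas the NT-2 line crosses the others for H1-2, H2AC18 and H2AC20.

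H3 genes gave little signal: the brightest of the 9 H3 probes above background had a mean level of 7.70. H3C3 (HIST1H3C) was the 1 called. It ran from 7.51 through 7.54 to 7.59 on KLF4 arrays and from 7.63 through 7.71 to 7.76 on ECV arrays, so the groups did not overlap even though the difference was small. It fell by 0.16 on the log2 scale (SE 0.0471, limma adjusted p = 0.01386), in 6 of 6 lines. The other 8 H3 probes differed by -0.11 to 0.09.

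H4C8 (HIST1H4H) ran from 8.16 through 8.37 to 8.41 on KLF4 arrays and from 8.53 through 8.70 to 9.01 on ECV arrays. The groups did not overlap, and H4C8 fell by 0.40 on the log2 scale (SE 0.0590, limma adjusted p = 7.871e-05) in 6 of 6 lines. H4C12 (HIST1H4K) ran from 8.64 through 8.80 to 9.00 with KLF4 and from 8.90 through 9.07 to 9.19 with ECV. Its groups overlapped, but each line was lower with KLF4, and it fell by 0.24 (SE 0.0676, limma adjusted p = 0.01123). H4C15 (HIST2H4B) was called at -0.18 (limma adjusted p = 0.03486), was higher with KLF4 in line 150-4, and was not called with the line as a block (adjusted p = 0.05).

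H4C3 (HIST1H4C) was among the bright probes that were not called. It ran from 14.38 through 14.49 to 14.59 on KLF4 arrays and from 14.33 through 14.40 to 14.56 on ECV arrays, near the top of the scale, 14.8. The groups overlapped and its difference was 0.07, which did not pass. H4C5, H4C11 and H4C14 differed by -0.12 to 0.07 and were not called.

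Signal level and calls went together. Of the 15 histone probes with a mean above 8, 10 fell and 1 rose, and of the 26 at or below 8, 2 fell (H3C3 and H4C15) and 0 rose. The split at 8 was chosen after these values were seen. Among all probes above 8, 56.2% were called, 32.4% as falls and 23.8% as rises. Among all probes at or below 8, 19.2% were called, 10.6% as falls and 8.67% as rises. Dim probes compress differences, so a small difference near background does not show that a gene was steady. The 39 probes not above background on at least 2 arrays had mean levels from 6.92 to 7.2 and line differences from -0.25 to 0.42. They include 5 of the 6 H1 probes, 6 of 19 for H2A, 12 of 23 for H2B, 8 of 17 for H3 and 8 of 15 for H4. The 4 testis histone genes H1-6, H2AC1, H2BC1 and H3-4 were all among them.

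**Figure D3:**
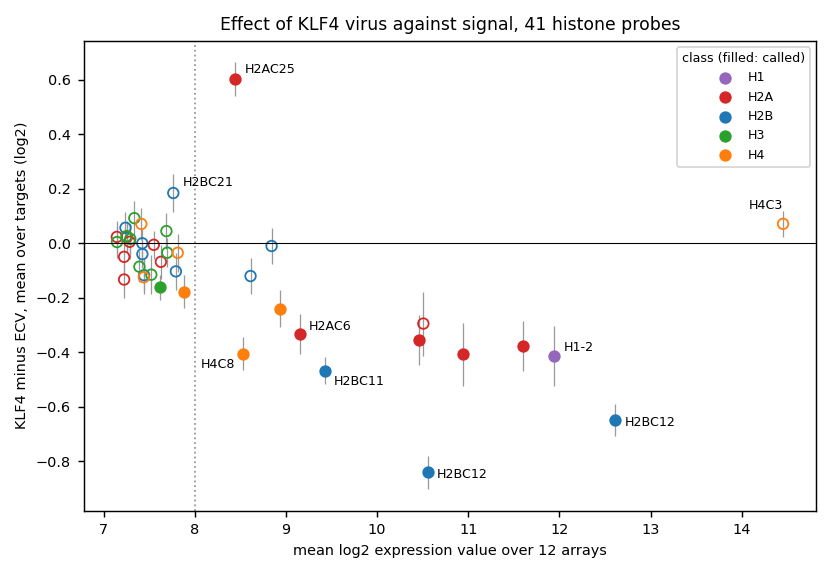
Mean over targets of the difference between KLF4 virus and empty virus (log2, y axis, bars are SE) against the mean log2 value over the 12 arrays (x axis) for the 41 histone probes; filled symbols are called and the dotted line marks 8. Probes at or below 8 lie between -0.18 and 0.18, and those above it between -0.84 and 0.60.

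Chromosomal position and gene pairing did not give a uniform picture. Of 29 probes for the chromosome 6 cluster, 8 fell (27.6%) and 0 rose. Of 11 probes for the larger chromosome 1 cluster, 4 fell (36.4%) and 0 rose, where 21.4% of all probes fell and 16.2% rose, and the 1 probe of the smaller chromosome 1 cluster was that for H2AC25. In 11 H2A and H2B pairs the genes start head to head less than 1000 bases apart, and in 4 of these pairs both genes were above background. H2AC20 fell by 0.36 while H2BC21, which starts 236 bases from it, had a difference of 0.18. H2BC11 fell by 0.47 while H2AC11, 248 bases away and above background on 4 arrays, differed by 0.02. H2AC6 fell by 0.33 while H2BC4, 246 bases away, differed by -0.10. In the remaining pair, H2AC17 and H2BC17 differed by -0.07 and -0.04. The difference within a pair was not tested.

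The difference between viruses is given by line next, from 1 array of each virus, so that differences between lines were not tested. Over the 15 histone probes above 8, the median difference was -0.49 in p21-2, -0.43 in p21-3, -0.51 in 150-3 and -0.14 in 150-4, against -0.36 in NT-3 and 0.15 in NT-2. In NT-2, 9 of these probes were higher with KLF4, against 4 in NT-3 and 2 in each of the other 4 lines. Over all 41 probes, 7 (17.1%) were lower with KLF4 in 5 lines and higher in NT-2, against 1.77% of all probes; the pattern was chosen after these values were seen. In all, 6 histone probes (14.6%) were lower in 6 of 6 lines, against 20.0% of all probes, and for 5 (12.2%) every KLF4 array was below every ECV array, against 11.9%. For 1 (2.44%), H2AC25, every KLF4 array was above, against 9.73%.

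Within p21 lines, 8 histone probes fell and 1 rose, 22.0% of the 41 against 15.9% of all probes (8.50% fell and 7.42% rose). H2BC12 read 10.10 and 10.01 with KLF4 in p21-2 and p21-3, against 10.96 and 11.05 with ECV, by one probe, and 12.09 and 12.27 against 13.05 and 13.15 by the other. H2BC11 read 9.20 and 9.02 with KLF4, against 9.69 and 9.73 with ECV. In each of these the KLF4 arrays lay well below the ECV arrays, with differences of -0.95, -0.92 and -0.60 (limma adjusted p of 3.496e-05, 2.65e-05 and 0.0003335). H1-2 read 11.46 and 11.84 with KLF4 against 12.40 and 12.26 with ECV, and H2AC20 read 10.11 and 10.20 against 10.64 and 10.79. They fell by 0.68 and 0.56 on the log2 scale (limma adjusted p = 0.02524 for both). H2AC25 read 9.18 and 8.97 with KLF4 against 8.23 and 8.30 with ECV, and rose by 0.81 (limma adjusted p = 0.0001361). Calls in p21 lines changed when 1 array was left out. Without the KLF4 array of NT-2 or of NT-3 the estimates in p21 lines were the same, since neither array enters them. The spread shared by all groups changed, because the group with the highest SD, 0.186, then held 1 array. H2AC20 was not called without any 1 of the p21 arrays (adjusted p from 0.0705 to 0.172) or with cyclic loess (0.0543). H1-2 was not called without 3 of the 4 (0.0783 to 0.226) or with a trended, robust variance model (0.0652).

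Within miR-150 lines, 4 histone probes fell and 1 rose, 12.2% against 13.8% of all probes (7.13% fell and 6.70% rose). H2BC12 read 10.04 and 10.15 with KLF4 in 150-3 and 150-4, against 11.05 and 11.16 with ECV, by one probe, and 12.15 and 12.40 against 12.95 and 12.96 by the other. H2BC11 read 9.16 and 9.15 with KLF4 against 9.66 and 9.78 with ECV, and H4C8 read 8.36 and 8.37 against 8.72 and 9.01. All 4 probes were lower in both lines, with differences of -1.01, -0.68, -0.57 and -0.50 (limma adjusted p of 2.024e-05, 0.0003909, 0.0005898 and 0.004408). H2AC25 read 8.59 and 8.60 with KLF4 against 8.10 and 8.10 with ECV and rose by 0.49 (limma adjusted p = 0.006672). H2AC25 was not called without the ECV array of 150-3 (0.0557) or the KLF4 array of 150-4 (0.0526), nor H4C8 without the ECV array of 150-4 (0.0741). Leaving out the KLF4 array of either non-targeting line changed no estimate in miR-150 lines, since neither array enters them. It changed the spread shared by all groups, because the group with the highest SD, 0.186, then held 1 array. Calls from such a fit cannot be set beside those of all 12 arrays.

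Within non-targeting lines, 2 histone probes fell and 2 rose, 9.76% against 23.0% of all probes (12.6% fell and 10.4% rose). H2BC12 read 10.41 and 10.13 with KLF4 in NT-2 and NT-3, against 10.92 and 10.74 with ECV, and 12.43 and 12.39 against 12.76 and 12.75 by the second probe. H2AC25 read 8.42 and 8.72 with KLF4 against 8.02 and 8.11 with ECV. The first H2BC5 probe read 9.22 and 8.83 with KLF4 against 8.75 and 8.58 with ECV. The differences were -0.56, -0.35, 0.51 and 0.36 (limma adjusted p of 0.001651, 0.02116, 0.003242 and 0.03261). The H2BC5 difference was 0.17 without the KLF4 array of NT-2 (adjusted p = 0.363) and 0.28 without the ECV array of NT-3 (0.227), and it was not called with array weights (0.0553). The second H2BC12 probe was not called without either non-targeting ECV array (0.0917 and 0.0893) or with array weights (0.0676). With cyclic loess or normexp the split was 3 higher and 1 lower, since H2BC21 was called and the second H2BC12 probe was not. Cyclic loess also turned the split over all probes, in the mean response and within each edit. In miR-150 lines it became 1556 higher and 1140 lower, against 1356 and 1443. In p21 lines it became 1716 and 1442, against 1502 and 1721. In non-targeting lines it became 2527 higher and 1947 lower, against 2111 and 2542. Without the KLF4 array of NT-2, 6 histone probes fell and 1 rose, and without that of NT-3, 2 fell and 5 rose.

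**Figure D4:**
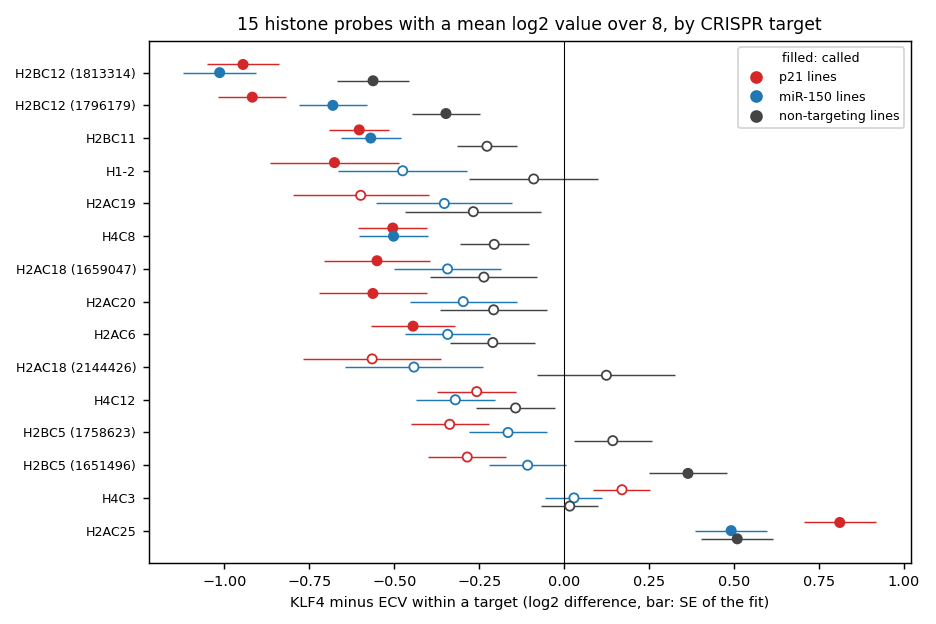
Difference between KLF4 virus and empty virus (log2, x axis, bars are SE) within p21, miR-150 and non-targeting lines for the 15 histone probes with a mean above 8; filled symbols are called. The estimates for non-targeting lines lie right of those for p21 lines for every probe but H4C3 and H2AC25.

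Whether the response to KLF4 virus differed between edits was tested directly. For p21 minus non-targeting lines 0 of 41 histone probes were called by limma, against 0.00494% of all probes. At an unadjusted p under 0.05 there were 10 (24.4%), against 5.91% of all probes. For miR-150 minus non-targeting lines 0 were called, also against 0.00494%, and 5 (12.2%) had an unadjusted p under 0.05, against 4.38% of all probes. The median difference in response over the 41 probes was -0.11 for p21 and -0.11 for miR-150 lines. Without both NT-2 arrays these medians were -0.04 and -0.01, and without the KLF4 array of NT-3 they were -0.14 and -0.14. The smallest p-values for p21 lines were those of the second H2BC12 probe, with a difference in response of -0.57 (SE 0.142, adjusted p = 0.8097), H2BC5 with -0.65 (SE 0.162, adjusted p = 0.8097) and H2BC11 with -0.38 (SE 0.125, adjusted p = 0.8375). The H2BC5 probe read 8.62 and 8.67 with KLF4 in p21 lines, against 8.95 and 8.91 with ECV, so its direction there was opposite to that in non-targeting lines. For miR-150 lines the smallest were those of H2AC21 with -0.40, the first H2BC12 probe with -0.45 and H2BC5 with -0.47 (limma adjusted p = 0.9804 for each). H2AC21 read 7.41 and 7.37 with KLF4 in miR-150 lines, against 7.60 and 7.51 with ECV, and 7.83 and 7.64 with KLF4 in non-targeting lines, against 7.48 and 7.51 with ECV.

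These interaction counts depended on 1 array. Without the KLF4 array of NT-3, which leaves NT-2 alone in its group, 5 histone probes were called for p21 (H1-2, H2AC18, H2AC19, H2BC5 and H2BC12) and 4 for miR-150 (H1-2, H2AC18, H2BC5 and H2BC12), all with a negative difference. In that fit the spread of the lone array is assumed to be that of the other groups, and the group with the highest SD, 0.186, adds nothing to it, so these calls cannot be set beside those of all 12 arrays. Without the KLF4 array of NT-2, 0 were called in either comparison.

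The edits themselves, averaged over both viruses, gave no histone call. For p21 minus non-targeting lines 0 of 41 probes were called by limma, against 0.208% of all probes, and 1 (2.44%) had an unadjusted p under 0.05, against 9.31% of all probes. For miR-150 minus non-targeting lines 0 were called by limma, against 0% of all probes, and 2 (4.88%) had an unadjusted p under 0.05, against 4.19%. H2AC25 came nearest, with 9.18 and 8.97 with KLF4 and 8.23 and 8.30 with ECV in p21 lines, against 8.42 and 8.72 with KLF4 and 8.02 and 8.11 with ECV in non-targeting lines. Each p21 array was above both non-targeting arrays of the same virus, and the difference was 0.35 (SE 0.0754, limma adjusted p = 0.105). Without the KLF4 array of NT-3, which leaves NT-2 alone in its group, it was 0.43. H4C3 (-0.12) and H4C15 (0.14) followed for p21 lines (adjusted p = 0.5568 and 0.5833), and H3C2 (0.16), H2AC21 (-0.14) and H4C3 (-0.12) had the smallest p-values for miR-150 lines (limma adjusted p = 0.9794 for each). H4C15 read 7.79 and 7.82 with KLF4 and 8.06 and 8.20 with ECV in p21 lines, against 7.73 and 7.83 with KLF4 and 7.90 and 7.85 with ECV in non-targeting lines. H3C2 read 7.33 and 7.14 with KLF4 and 7.23 and 7.30 with ECV in miR-150 lines, against 7.04 and 7.12 with KLF4 and 7.24 and 6.98 with ECV in non-targeting lines. Over both viruses, the values of the edits overlapped for both genes. H4C3 read 14.51 and 14.48 with KLF4 and 14.33 and 14.33 with ECV in p21 lines, 14.38 and 14.47 with KLF4 and 14.36 and 14.43 with ECV in miR-150 lines, and 14.49 and 14.59 with KLF4 and 14.49 and 14.56 with ECV in non-targeting lines.

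Several genes of the set are known to give polyadenylated transcripts in differentiating or arrested cells. Of 9 such genes 8 were above background, and 5 of them fell and 0 rose in the mean response to KLF4 virus (H2BC12, H4C8, H2AC6, H2AC18 and H1-2). That is 62.5%, where 21.4% of all probes and 32.4% of those above 8 fell. Of the 15 histone probes above 8, listed or not, 66.7% fell. These include the probes of listed genes that fell, so they cannot show whether the fall was particular to this list. Of genes not listed, H2BC11, H2AC20 and H4C12 also fell, while H2AC25 rose. The median difference of the 8 listed genes was -0.36, against -0.36 over those 15 probes and -0.02 over all probes. By line this median was -0.38 in p21-2, -0.40 in p21-3, -0.32 in 150-3 and -0.21 in 150-4, against -0.31 in NT-3 and 0.14 in NT-2.

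Histone variants outside the canonical clusters, most of which are made throughout the cell cycle from polyadenylated mRNAs, moved both ways. Of 10 above background, 3 rose and 1 fell, with a median of 0.05. H3-5, an H3.3-like gene, rose by 0.48, linker histone H1-10 by 0.36 and MACROH2A1, an H2A variant with a macro domain, by 0.16, while the H2A variant gene H2AJ fell by 0.33 (limma adjusted p from 0.000272 to 0.0268).

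Of 19 genes for histone mRNA transcription and 3' end processing, 4 fell and 0 rose, with a median of -0.07. The 21.1% that fell is close to the 21.4% of all probes. SNRPF (-0.47) and SNRPE (-0.25), Sm proteins of small nuclear RNPs, fell, as did the cleavage endonuclease CPSF3 (-0.19) and the transcription factor YY1 (-0.24), with limma adjusted p from 7.41e-06 to 0.0209. Of 21 histone chaperones and import factors, 11 fell (52.4%) and 1 rose (4.76%), where 21.4% of all probes fell and 16.2% rose. Their median was -0.16. The nucleosome assembly protein NAP1L1 fell by 0.67, the importin IPO4 by 0.64, the H3 and H4 chaperone NASP by 0.47 and MCM2, a helicase subunit that also binds H3 and H4, by 0.67 (limma adjusted p from 1.45e-06 to 1.34e-05).

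Of 39 genes for S phase and DNA replication, 27 fell (69.2%) and 2 rose (5.13%), where 21.4% of all probes fell and 16.2% rose. Their median was -0.28. POLD1, the catalytic subunit of DNA polymerase delta, fell by 0.82, the cyclin CCNE1 by 0.45 and the helicase subunit MCM5 by 0.49, and the transcription factor E2F2 rose by 1.25 (limma adjusted p from 6.01e-10 to 1.21e-05). By line the median of these 39 genes was -0.19 in p21-2, -0.26 in p21-3, -0.15 in 150-3 and -0.34 in 150-4, against -0.30 in NT-3 and -0.52 in NT-2. NT-2 thus had the lowest median for S phase genes and the highest for bright histone probes. It also had the highest median of the 9 monocytic markers, 0.73, against 0.29 to 0.40 in the other 5 lines. The part of S phase, or of monocytic differentiation, in the histone values was not tested. The monocytic markers ITGAM (3.03), CD68 (1.17), SPI1 (0.45) and FCGR1A (0.76) rose beside them, as did NKG7 (1.17), a T and NK cell marker, and CD79B (0.16), a B cell marker.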

How the data were processed

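THP-1 RNA, extracted with Trizol and a miRNeasy kit and labelled with biotin per the labels' protocols, was measured on 12 Illumina bead arrays. The deposited log2 expression values (series matrix) were used as they stand. All arrays share the same distribution; the scanner software and the steps taken by the authors were not given in the sources used here. One deposited table of raw values was left out, because none of its 24 columns names a sample.

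The background level is the mode of all values (7.085) plus the 95th percentile of the distances of lower values below it, which came to 7.29. Probes above it on at least 2 of the 12 arrays were tested, probe by probe, with limma 3.58.1 (R 4.3.3; lmFit with 1 mean per group over 6 groups, eBayes), and p-values were adjusted by Benjamini-Hochberg over all 20240 probes in each of 8 comparisons. SEs are those of the moderated fit. Arrays have no read depth, and 2 arrays per group limit the precision. On simulated data for 20240 probes, changes of 0.5 and 1 were recovered in 96% and 100% of cases for the mean response, and in 26.5% and 83.5% for the difference in response between p21 and non-targeting lines. The simulated noise had 1 variance per probe in all 6 groups, so it lacked the higher SD of the KLF4 arrays of non-targeting lines. These rates may not hold for comparisons that use that group.

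The platform annotation names 1 gene for 30113 probes, several for 8 and none for 17202. The members and lists were chosen with earlier results of these data known. Named were KLF4 and CDKN1A, the 10 histone probes with the largest called change each way in the mean response, the 5 largest each way in other comparisons, the 3 smallest p where none was called, and the 4 smallest p of each other list, 1 probe per gene. Lines pair arrays across viruses; deviations of same-line arrays correlated at 0.0777 (non-targeting), -0.0431 (miR-150) and 0.0698 (p21). Promoters were compared with Biopython 1.88. Alternatives were the filter on dim probes, normexp background correction (offset 50), cyclic loess, the variance model, array weights, 1 probe per gene, the line as a block, each array left out in turn and, chosen after the data were seen, line NT-2 left out.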

Additional observations from a re-analysis of the deposited data

Results flagged for a closer look

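Of 41 histone probes whose 6 line differences were checked, 3 had a line far from the other 5, and each time it was NT-2; chance gives such a line in about 1 in 20 probes. For the second H2AC18 probe the difference between KLF4 and ECV in NT-2 was 0.732, against -0.68 to -0.245 in the other 5 lines. For H2AC11 it was -0.208, against 0.026 to 0.126, and for H2AC7 it was -0.363, against -0.062 to 0.113. H2AC11 was above background on 4 arrays and H2AC7 on 2. The cause was not tested.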

How the results depend on the processing

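In the mean response to KLF4 virus, 12 to 15 histone probes were called under each of 21 alternatives, and the 11 probes given by array kept their direction and call in 230 of 230 refits. H4C15 and H2BC21 were each called in 10 of 21. Over the whole array, 1 probe per gene gave 5023 calls, from fewer tests. The line as a block changed the calls of H4C15 and H2BC21 in the mean response (13 histone probes called, adjusted p = 0.05 and 0.0418), of H2BC21 in non-targeting lines, and of H2AC19 and 1 H2BC5 probe in p21 lines, and no other histone call.

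Responses within an edit and their differences rested on few arrays. With 1 array left out, histone calls ranged from 3 to 7 in non-targeting lines (2748 to 6104 calls over all probes), from 4 to 11 in miR-150 lines (1199 to 4141) and from 5 to 14 in p21 lines (1460 to 4522). Differences in response gave 0 to 5 histone calls for p21 (0 to 727 over all probes) and 0 to 4 for miR-150 (0 to 553). Edits averaged over viruses gave 0 to 1 for p21 (4 to 1243) and 0 to 2 for miR-150 (0 to 534). The highest counts in these last 4 comparisons came without the KLF4 array of NT-3, which leaves NT-2 alone in its group. Array weights gave 2 histone calls for non-targeting lines, 9 for miR-150 and 14 for p21, with 3370, 3931 and 4438 calls over all probes. An alternative chosen after seeing the data, without both arrays of NT-2, gave 7, 12 and 14, with 2787 calls over all probes for non-targeting lines and 4267 for miR-150. Over all probes, that fit gave 10 and 11 calls for the differences in response of p21 and miR-150 lines, and 7 for miR-150 lines averaged over viruses. The 1 call over all probes in either difference in response became 0 with normexp and with 1 probe per gene, and for p21 also with the line as a block. For p21 lines averaged over viruses, 1 probe per gene left 24 calls. The cause of these shifts was not tested. Signal near background and at the top of the scale limits what small differences can show.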
